A study of Cervus nippon with 40 samples.

Results

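The comparison set the adult stage of male Sika deer of the Shuangyang breed against the adolescence stage, organ by organ. It used 20 of the 40 libraries of the series, which were all those labelled adolescence (age 3 years) or adult (age 5 years). Each stage had 10 libraries, 1 each from adrenal, antler, brain, heart, kidney, liver, lung, skeletal muscle, spleen and testes, and the 2 libraries of an organ made a pair. The animals carried no treatment or transgene, and the stages differed by label in age alone. Every library held the combined RNA of 3 deer, and the 3 deer of a stage gave all of its organs. An age difference and a difference between the 2 sets of deer therefore cannot be told apart here, and agreement among organs is agreement within the same animals. The juvenile (1 year) and aged (10 years) libraries serve only as a background where they are named.

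MicroRNAs (miRNAs) are short RNAs that guide Argonaute proteins to messenger RNAs carrying a match to the seed near the 5′ end of the miRNA, and the bound messenger is then translated less or degraded. Many are restricted to a tissue. Muscle fibres make miR-1 and miR-133, neurons make miR-124, neuroendocrine cells make miR-7, liver and kidney epithelium make miR-192, and fibroblasts, cartilage and bone make miR-199a, miR-214 and miR-140. The let-7 family accumulates as tissues mature, and several clusters of the embryo decline after birth. In whole organs a lower level can come from fewer cells of a type or from less RNA per cell, and these cannot be told apart.

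Levels are given as deposited, as RPM, the reads of a miRNA per 1000000 miRNA reads of its library. Only names of known cattle miRNAs (prefix bta-, omitted below) entered, and 294 of them had a read in the 20 libraries. The miRNA reads of a library ran from 67231 in adolescence testes to 6497783 in adult skeletal muscle, with a median of 509324 at adolescence and 720904.5 in the adult, so that 1 read stood for 0.154 to 14.9 RPM. Most organs had at least 1 marker that bore out the label. At both stages miR-1 ranked first in skeletal muscle, miR-208b in heart, miR-124a in brain, miR-196a in kidney, miR-150 in spleen, miR-199a-3p and miR-214 in antler, miR-7 in adrenal and miR-1468 in lung among the 10 organs. Liver had no marker that ranked first at both stages, since its miR-192 was second to kidney at adolescence. Several markers failed. miR-194 in liver and kidney and miR-451 in spleen had 0 reads at both stages, miR-10a in kidney had 0 and 1, miR-202 in adrenal 1 and 0, and in testes miR-449a had 6 and 0 and miR-202 had 1 and 0. In skeletal muscle miR-133a ranked 2 behind heart at both stages, and miR-140 ranked 4 in the adult antler. The markers miR-122 of liver, miR-9-5p of brain and miR-34c of testes were looked for and were not found under these names at either stage. In lung neither miR-126-3p nor miR-145 ranked first, and the rank of miR-1468 rested on 20 reads at adolescence and 86 in the adult. In spleen miR-142-5p ranked 4 at adolescence and 6 in the adult.

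Of the 20 libraries, 19 were most like another library of their own organ among all 40. The exception was the adolescence lung, whose nearest library was the aged spleen (r = 0.943 across the tested miRNAs) and whose highest r with another lung library was 0.925. The adolescence brain was nearest to brain, but its r with the other 3 brain libraries was only 0.747 to 0.886. Both libraries are in the sets below. The test, the direction counts and the list medians are also given without brain. Without lung, results are given for the test and its mean differences, and not for the direction counts or list medians. The r values between organs hold both libraries.

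Across the 10 organs, no miRNA passed the limits of the study (adjusted p below 0.01 and a difference above 2-fold). The test was limma on log2(RPM + 1) after TMM scaling, a scaling that assumes that the bulk of miRNAs is level between libraries, with organ as a block. A miRNA needed 10 reads or more in 4 or more of the 20 libraries to be tested. The test covered 105 and called 0 of them (0%). At an unadjusted p below 0.05 there were 23 (21.9%), 11 higher and 12 lower in the adult, and the smallest adjusted p was 0.0599. On recovered reads edgeR also called 0, with 23 at an unadjusted p below 0.05, and DESeq2 called 0 with 42. The median difference of all 105 was 0.28 on the log2 scale, against 0.23 on RPM without TMM, 0.45 on the clean reads of each library and 0.05 on totals without miR-1, so single differences should be read beside that shift.

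The number at an unadjusted p below 0.05 depended on single organs. It was 55 without brain, 12 without kidney, 14 without adrenal, 14 without testes and 15 without heart. Without brain, limma gave an adjusted p below 0.05 for 39 of 103 miRNAs. In the adult 16 were higher and 23 lower, and 25 of the 39 were past 2-fold. The 39 count some signals more than once. The names let-7b and miR-3596, miR-26a and miR-26c, and miR-152 and miR-2957 have the same or nearly the same reads. Still 0 passed the limits, since the smallest adjusted p was 0.0100045. Of the 39, 31 had at least 20 reads in the brain pair, and 23 of those 31 went the other way in brain. Brain was the organ whose differences ran against the mean of the other 9 (r = -0.50). Leaving it out raises the agreement that the test measures, so these p values describe the remaining organs only. Without lung the number at an unadjusted p below 0.05 was 16, and without brain, lung and testes together it was 28, with 0 called.

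The 5 miRNAs with the smallest p among those higher in the adult were miR-339b, miR-339a, miR-7859, miR-125a and miR-145. The level of miR-339b at adolescence was 8.44 RPM in skeletal muscle, 809 RPM at the median and 7090 RPM in liver, and in the adult it was 8.62, 1864 and 6020 RPM in the same order. Organs differed far more than stages, so the 2 groups overlapped almost entirely and the difference stood out only within pairs. After TMM scaling miR-339b was higher in the adult in 9 of 10 organs, with a mean log2 difference of 1.202 ± 0.32 (SE, n = 10 organs; 95% interval 0.53 to 1.87; limma adjusted p = 0.0599), and by RPM alone in 7 of 10. By RPM the step was widest in heart (33.2 to 700 RPM) and brain (128 to 1885 RPM). Without brain the mean was 0.79, and 0.63 without brain, lung and testes. The related miR-339a ran from 47.5 through 3092 to 27813 RPM at adolescence and from 44.9 through 8622 to 17766 RPM in the adult (lowest, median and highest organ). It was higher in 8 of 10 organs, by 1.11 ± 0.32 (SE), with the same adjusted p by limma. Liver was lower in the adult for both names.

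miR-145, a miRNA of vascular and visceral smooth muscle, was the one name with an even direction under both scalings. It stood at 638 RPM in skeletal muscle, 25798 RPM at the median and 189707 RPM in spleen at adolescence, and at 1047, 43102 and 198873 RPM in the adult. It was higher in the adult in 9 of 10 organs both by TMM and by RPM, although the odd organ was heart by TMM and lung by RPM. The mean log2 difference was 0.95 ± 0.32 (SE, n = 10; limma adjusted p = 0.105), and 0.72 without brain. Over the alternatives its adjusted p ran from 0.00639 to 0.736. The lowest, with all 40 libraries in the limma fit, passed the p limit of the study, but the log2 difference of 0.99 stayed under 2-fold. The largest step was in adrenal, from 18700 to 78643 RPM. The aged adrenal library was back at 30037 RPM and the juvenile one at 25956 RPM, so for miR-145 the adult library was the one that stood high. The other 2 names with a small p were scarce. miR-125a had at least 20 reads per pair in 6 organs and was higher in all 6 by TMM and in 4 by RPM, with at most 88.9 RPM and a mean over all organs of 1.23 ± 0.40 (SE). miR-7859 had them in 5 organs, higher in 2 and lower in 3 by TMM but higher in all 5 by RPM.

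Among those lower in the adult the smallest p values were those of miR-7, miR-1, miR-671, miR-133c and miR-2285f. miR-7 ranged from 536 RPM in skeletal muscle through a median of 9262 RPM to 590536 RPM in adrenal at adolescence, and from 296 through 2743 to 93085 RPM in the adult. It was lower in the adult in 9 of 10 organs by TMM and in 8 of 10 by RPM, where brain, at 33260.1 and 58015 RPM, changed sides. The mean log2 difference was -1.29 ± 0.35 (SE, n = 10; interval -2.02 to -0.56; limma adjusted p = 0.0599), and it was -1.64 without brain and -1.32 without brain, lung and testes. Liver was the organ with more miR-7 in the adult under both scales (1967 to 3693 RPM).

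miR-1, the main miRNA of striated muscle, lay between 1867 RPM in brain and 917819 RPM in skeletal muscle at adolescence, with a median of 9729 RPM, and between 1047 RPM in lung and 928505 RPM in skeletal muscle in the adult, with a median of 3765 RPM. Skeletal muscle itself was near level, while 9 of 10 organs had less miR-1 in the adult by RPM and 8 of 10 by TMM. The mean log2 difference was -1.23 ± 0.34 (SE; limma adjusted p = 0.0599), and -1.46 without brain. Of the 8 striated muscle miRNAs 4 were tested. Their summed level was lower in the adult with miR-1 in testes (51375 and 10967 RPM), lung (5095 and 1312 RPM) and kidney (12085 and 4293 RPM), but it was higher in brain (2264 and 2825 RPM), and in the adult spleen miR-133a (5650 of 7538 RPM) and not miR-1 made up most of it. miR-133a, made in the same fibres, was lower with it by RPM in 3 of the 9 organs, which were testes (2677 and 1969 RPM), liver (1985 and 1317 RPM) and antler (434 and 172 RPM). It was not in the other 6, among them lung (260 and 261 RPM), kidney (804 and 1123 RPM) and adrenal (152 and 851 RPM). The part of muscle tissue in these samples was not tested.

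miR-671 was lower in the adult in all 4 organs with at least 20 reads per pair (mean over all organs -1.48 ± 0.41, SE; limma adjusted p = 0.0599). Its levels were small everywhere. The highest was brain, with 214 RPM at adolescence and 75.1 RPM in the adult, and the largest pair in reads had 79 and 60. miR-133c, another miRNA of the muscle group, was lower by 0.93 on average after TMM scaling. Only 3 organs had at least 20 reads per pair, and it was lower in 2 of them by TMM but in 1 by RPM. Its direction in heart rested on the scaling, with a TMM-scaled difference of -1.46 but 1440 RPM at adolescence and 2295 RPM in the adult. miR-2285f was lower in 5 of 8 organs, most of all in adrenal (93 reads to 1), kidney (58 to 3) and testes (27 to 2), and higher in antler, liver and skeletal muscle.

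**Figure D1:**
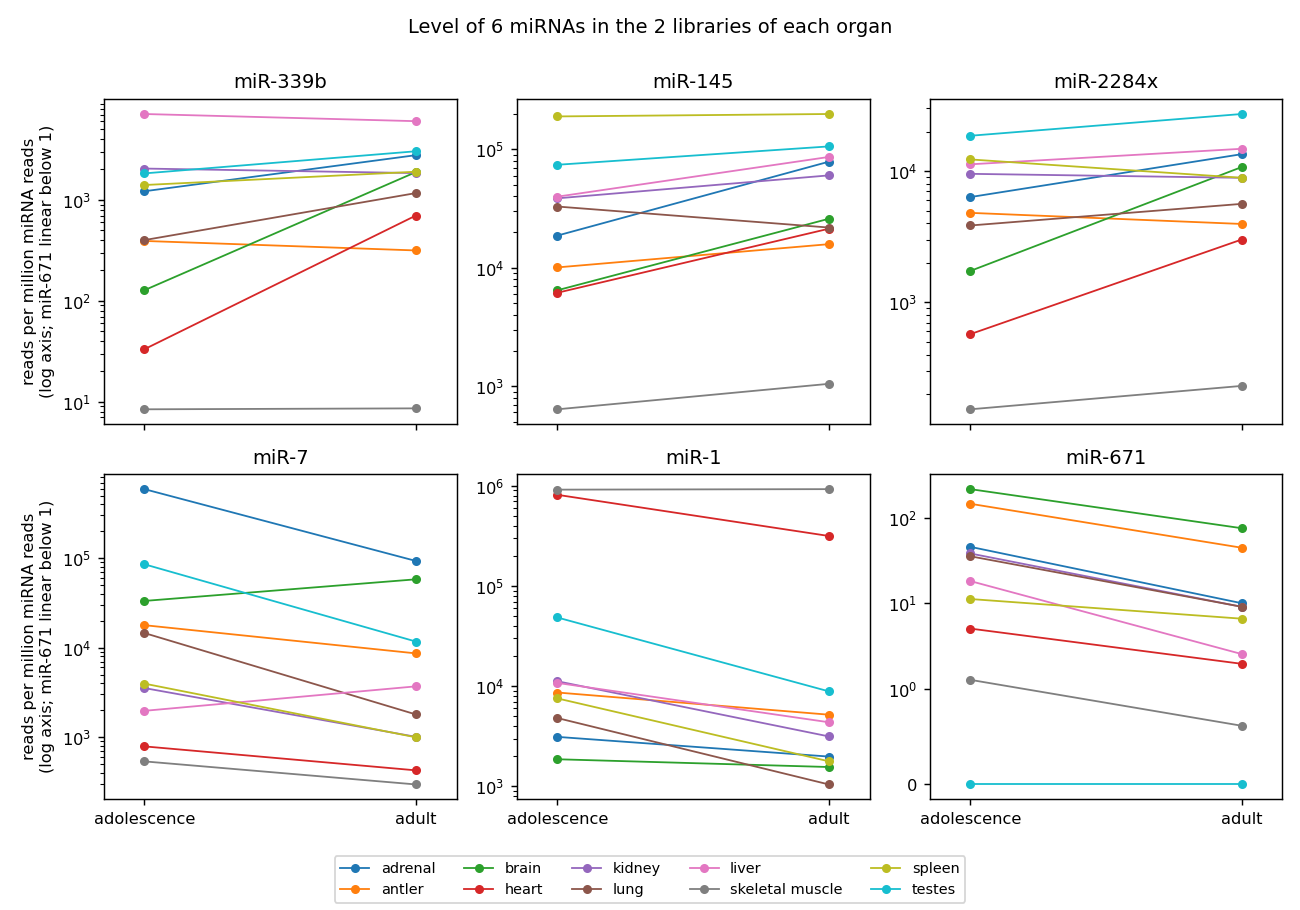
Level of miR-339b, miR-145, miR-2284x, miR-7, miR-1 and miR-671 in RPM (log axis) in the adolescence and the adult library of each organ, with 1 line per organ. Organs differ far more than stages, most lines of the upper row climb and most of the lower row drop, as for miR-7 in adrenal (590536 to 93085 RPM) and miR-1 in heart (814910 to 316406 RPM).

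An even direction over organs was rare. Of the 105 miRNAs, 54 had at least 20 reads per pair in all 10 organs, and 5 of these 54 (9.26%) lay on the same side in at least 9 organs, 4 higher (7.41%) and 1 lower (1.85%) in the adult. They were miR-145, miR-339b, miR-2284x and miR-2285o on the higher side and miR-7 on the lower. The names and the split rested on the scaling. By RPM the number was 2, miR-145 (higher) and miR-1 (lower), and with TMM factors set within each pair it was 10, 9 of them higher. On totals without miR-1 it was 4, all lower in the adult (let-7i, miR-1, miR-409a and miR-98), and 0 of these were among the 5 by TMM. With the size factors of DESeq2, on clean reads and with near-identical names merged, miR-7 was no longer among them, and miR-145 was not among them on totals without miR-1, with merged names or with the antler miR-148c under its own name. The most frequent outcome was higher in 7 of 10 organs, which 15 of the 54 showed, and 13 more were higher in 6. Without brain, 12 of the 54 lay on the same side in at least 8 of 9 organs, 7 higher and 5 lower in the adult, and 2 (miR-2284x and miR-2285o) were higher in 9 of 9.

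The only names on one side in 10 of 10 organs were miR-2284x and miR-2285o, members of a large miRNA family found in ruminants. miR-2284x had 153, 5571 and 18578 RPM as lowest, median and highest level at adolescence and 231, 8885 and 27211 RPM in the adult. Skeletal muscle was lowest and testes highest at both stages. The mean log2 difference was 0.79 ± 0.27 (SE; limma adjusted p = 0.105), with values from 0.05 in spleen to 2.12 in testes. By RPM it was higher in 7 of 10 organs, and antler, kidney and spleen were on the other side. miR-2285o was scarcer, with 3.12, 59.6 and 145 RPM at adolescence and 3.54, 99.9 and 192 RPM in the adult, and by RPM 8 of 10 organs were higher. Without brain the mean differences were 0.47 and 0.44.

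The organs differed greatly in how far their 2 libraries lay apart. With 1 library per stage no test is possible within an organ, so these are counts of miRNAs more than 2-fold apart among those with at least 20 reads in the pair, and a gain or loss of an organ below is a higher or lower value in its adult library. After TMM scaling 61 of 91 (67%) were past 2-fold in brain, in testes 42 of 65 (64.6%), in adrenal 64 of 103 (62.1%), in kidney 56 of 92 (60.9%), in lung 50 of 84 (59.5%) and in heart 51 of 90 (56.7%). The order among these 6 rested on the scaling, since by RPM heart had 64 of 90, brain 62 of 91 and testes 33 of 65. Antler followed with 28 of 80 (35%) and spleen with 21 of 91 (23.1%). The 2 libraries were most alike in skeletal muscle, with 10 of 72 (13.9%), and liver, with 11 of 83 (13.3%). Across the tested miRNAs, r between the 2 libraries was 0.9901 in skeletal muscle and 0.984 in liver, against 0.886 in brain and 0.889 in adrenal. The deepest pair was skeletal muscle (5452979 and 6497783 reads) and the shallowest testes (67231 and 97018), while liver (329913 and 390228) and kidney (367081 and 329393) were of like depth. The part of depth in these shares was not tested.

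Which side these miRNAs fell on rested on the scaling. By TMM the adrenal had 43 higher and 21 lower, kidney 34 and 22, lung 34 and 16, testes 35 and 7, antler 19 and 9, brain 22 and 39, heart 19 and 32, spleen 5 and 16, liver 5 and 6 and skeletal muscle 1 and 9. By RPM the adrenal had 37 and 21, kidney 17 and 27, lung 24 and 24, testes 5 and 28, antler 3 and 27, brain 49 and 13, heart 61 and 3, spleen 0 and 36, liver 7 and 6 and skeletal muscle 1 and 4. With TMM set within each pair, a choice made after seeing the data, adrenal had 34 and 24, kidney 27 and 22, lung 27 and 21, testes 16 and 17, antler 19 and 9, brain 39 and 22, heart 39 and 13, spleen 12 and 9, liver 4 and 7 and skeletal muscle 4 and 3. With the size factors of DESeq2 adrenal turned over too, to 31 higher and 34 lower, and kidney had 19 and 25, lung 27 and 21, testes 16 and 18, antler 24 and 4, brain 47 and 14, heart 37 and 17, spleen 8 and 14, liver 4 and 6 and skeletal muscle 2 and 5. Under RPM the total went from 21 to 36 in spleen and from 10 to 5 in skeletal muscle, the widest moves as a ratio, and the split turned over in brain, heart, testes, antler, kidney and liver.

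**Figure D2:**
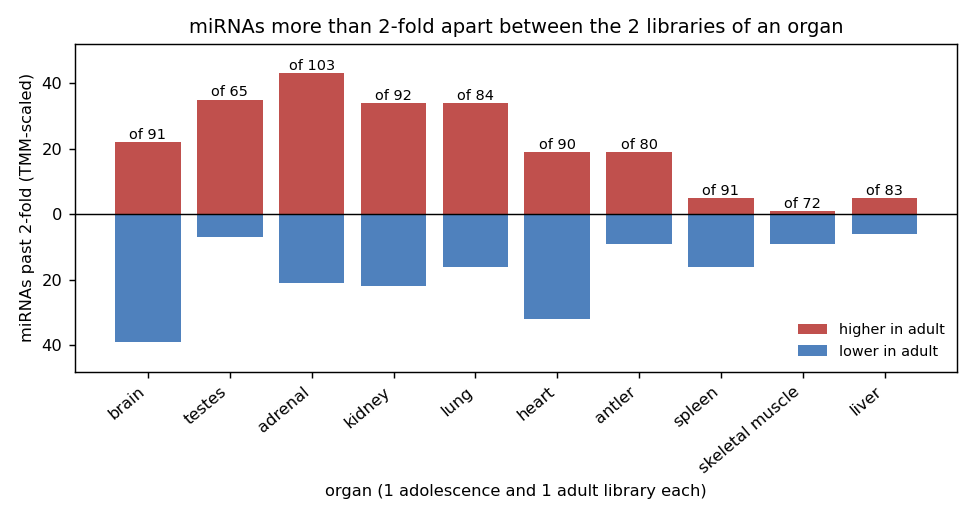
Number of miRNAs more than 2-fold higher (upward bars) or lower (downward bars) in the adult library of each organ after TMM scaling, with the number measured above each bar. Brain (61 of 91) and testes (42 of 65) have the highest shares, and liver (11 of 83) and skeletal muscle (10 of 72) the lowest.

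The organs also differed in which miRNAs stood apart. The log2 differences of an organ were set against the mean differences of the other 9 organs over the 105 tested miRNAs, a measure that a shift of all miRNAs in a library leaves nearly as it is. The r was 0.71 in lung, 0.69 in testes, 0.68 in kidney, 0.67 in heart, 0.64 in adrenal and 0.52 in spleen. It was 0.14 in antler, 0.08 in liver and 0.03 in skeletal muscle, and -0.50 in brain. By RPM these were 0.71, 0.63, 0.70, 0.69, 0.67, 0.53, 0.13, 0.08, -0.07 and -0.46 in the same order. The closest single pairs were adrenal with kidney (r = 0.86) and kidney with lung (r = 0.81), while brain had r between -0.60 and -0.38 with each of adrenal, heart, kidney, lung, spleen and testes. The points are miRNAs, which are not independent, and all 10 organs share the same deer, so these r values describe the libraries and carry no p.

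**Figure D3:**
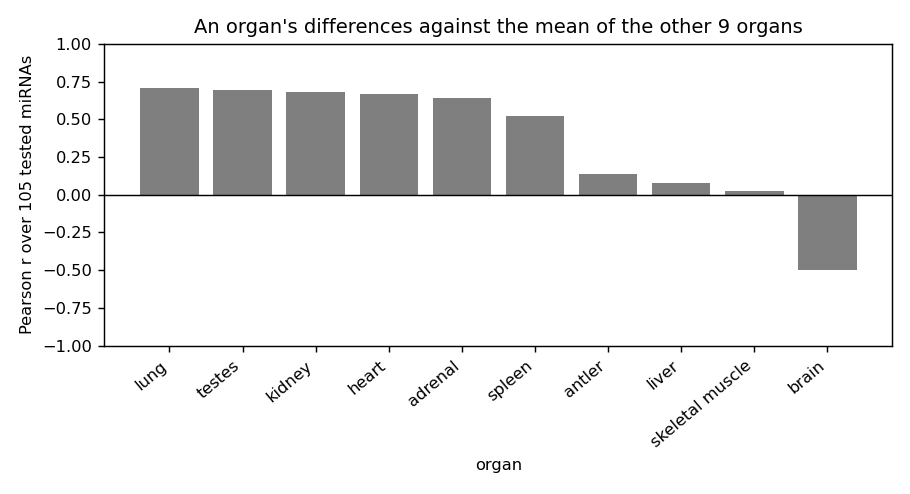
Pearson r, over 105 miRNAs, between the log2 differences (adult minus adolescence) of each organ and the mean of the other 9 organs. Bars for lung to spleen stand at 0.52 to 0.71, those for antler, liver and skeletal muscle near 0, and brain alone lies below 0 (-0.50).

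Some miRNAs with large steps, chosen after their values were seen, show the layout. miR-2898 went from 158 to 2536 RPM in adrenal (135 and 1517 reads), from 526 to 2511 RPM in kidney, from 86.1 to 401 RPM in lung, from 2454 to 5009 RPM in testes and from 21.1 to 516 RPM in heart. In brain it went the other way, from 1295 to 214 RPM, as it did in antler, spleen and skeletal muscle. miR-2478, miR-2904 and miR-2887 were likewise higher after TMM scaling in adrenal, kidney, lung, testes and heart and lower in brain, and the 3 were higher in spleen and lower in skeletal muscle, while in antler and liver their signs varied. Over all 10 organs their mean differences were 0.88 ± 0.65 for miR-2898 and 1.12 ± 0.53 for miR-2478 (SE), small beside the single steps, and the sign in brain was the opposite.

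let-7b was also higher in the adult in the same organs, from 28887 to 197264 RPM in adrenal, from 78892 to 301078 RPM in lung, from 70919 to 209045 RPM in kidney and from 107317 to 246222 RPM in testes. In brain it was 416330 at adolescence and 296968 RPM in the adult, and in liver 185325 and 156632 RPM. These values hold the reads of let-7b once, while miR-3596 carried identical reads in 20 of 20 libraries. The mean difference of let-7b was 0.93 ± 0.48 (SE; limma adjusted p = 0.209), and without brain it was 0.97 ± 0.29 with an adjusted p of 0.0256. miR-214, which is abundant in fibroblasts and antler, went from 460 to 3463 RPM in adrenal and from 258 to 153 RPM in brain, and unlike let-7b it was higher in the adult liver (4037 and 4828 RPM).

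On the opposite side stood miR-374a and miR-142-5p, the latter 1 of 3 tested miRNAs of the leukocyte list. miR-374a went from 1350 to 102 RPM in adrenal, from 1278 to 88.0 RPM in kidney, from 2038 to 144 RPM in testes, from 261 to 48.2 RPM in lung and from 115 to 15.5 RPM in spleen. It was 2.71 RPM (1 read) in the adolescence brain and 60.1 RPM (48 reads) in the adult brain. Antler, liver and skeletal muscle differed by less than 2-fold by TMM. miR-142-5p had 93 reads in the adolescence spleen and 6 in the adult one, 240 and 38 in lung, 52 and 5 in kidney and 38 and 3 in testes. In antler it went the other way, from 98.1 to 126 RPM, as in liver, from 24.2 to 51.3 RPM (8 and 20 reads). Leukocyte miR-150 did not share this direction, with 68.1 and 115 RPM in kidney and 13.8 and 31.3 RPM in lung. By RPM it was lower in testes (59.5 and 20.6 RPM, 4 and 2 reads) and spleen (325 and 267 RPM). After TMM scaling its log2 differences there were 0.03 and 0.23. Erythroid miR-486 was 2936 and 39211 RPM in heart and 5711 and 12027 RPM in brain, 5800 and 2943 RPM in spleen, and near level by RPM in kidney (2217 and 2659 RPM) and testes (982 and 1031 RPM). After TMM scaling it was lower in the adult brain (log2 -0.77). The heart step was smaller by TMM than by RPM, since the TMM factors there were 0.183 and 0.804.

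**Figure D4:**
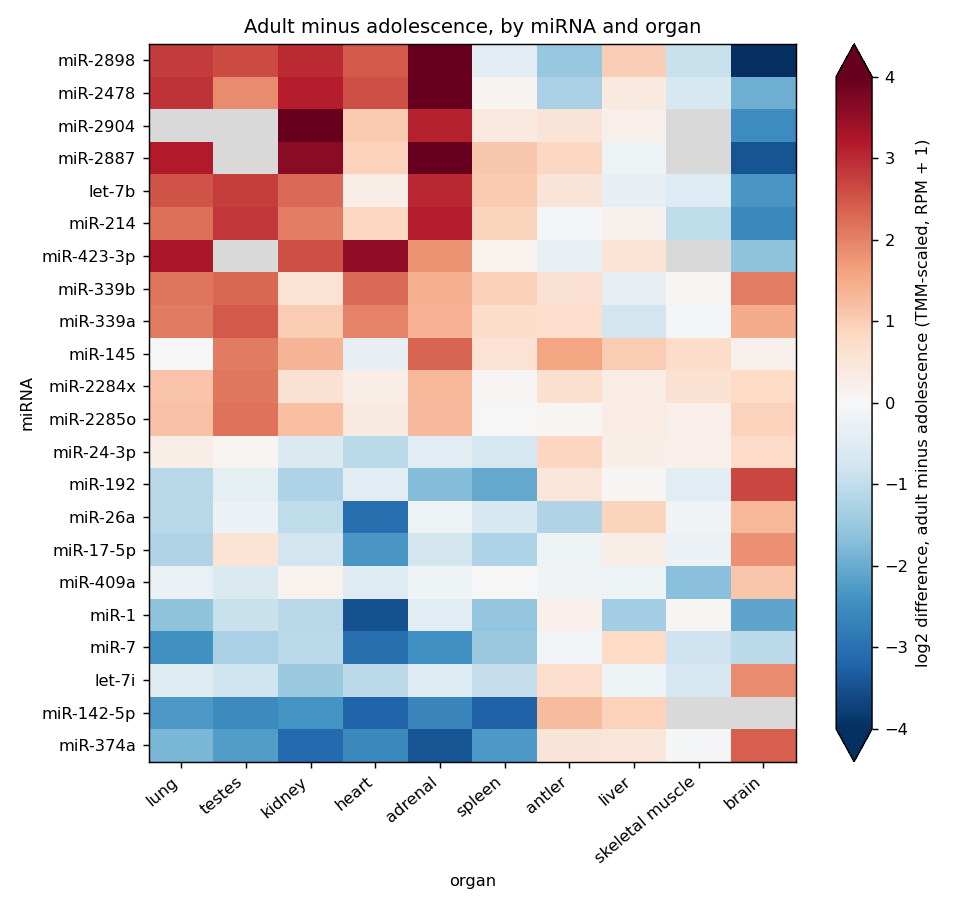
Log2 difference, adult minus adolescence, after TMM scaling for 22 miRNAs (rows) in the 10 organs (columns, in order of r with the other organs). Red is higher and blue lower in the adult, colours saturate at 4, and grey marks pairs under 20 reads. Lung, testes, kidney, heart and adrenal are red for miR-2898 and blue for miR-374a, brain is the reverse for both, spleen is blue for both, and liver and skeletal muscle are pale.

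In adrenal the most abundant name changed. miR-7, which held 59.1% of its miRNA reads at adolescence (590536 RPM), held 93085 RPM in the adult, and let-7b, with its twin name miR-3596, became the most abundant at 19.7%. The juvenile and aged adrenal libraries gave 474297 and 98970 RPM of miR-7, so the adult level lay close to the aged and the adolescence level nearer to the juvenile. miR-2898 had the largest TMM-scaled gain (log2 4.23) and miR-374a the largest loss (log2 -3.46) among names with at least 100 reads in the pair. The same minimum holds for the largest gains and losses of the organs below, and some scarcer names differed by more.

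In heart miR-1 went from 814910 to 316406 RPM, that is from 81.5% to 31.6% of miRNA reads, while miR-133a, its partner in muscle, went from 29225 to 184634 RPM and miR-378, which is tied to oxidative metabolism, from 32238 to 153214 RPM. The juvenile heart library, with 577640 RPM of miR-1, 83958 of miR-133a and 148974 of miR-378, lay between the adolescence and adult values for all 3. After TMM scaling miR-133a differed by 0.53 and miR-378 by 0.12 in heart, so for these names the size of the step depended on the scaling. The largest TMM-scaled gain was that of miR-423-3p (4 reads to 134) and the largest loss that of miR-216b (120 to 22).

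In kidney miR-192 went from 248624 to 63924 RPM, and the juvenile and aged kidney libraries had 270874 and 67465 RPM. The other tested kidney marker, miR-196a, went from 1196 to 723 RPM, but after TMM scaling it was level (log2 -0.006), while miR-192 stayed lower (log2 -1.24). The largest TMM-scaled gain was miR-2904 (10 reads to 168) and the largest loss miR-424-5p (110 to 6). In liver, which shares miR-192, the level was 147600 RPM at adolescence and 164140 RPM in the adult. The largest gain and loss in liver were small, miR-216b from 512 to 1709 RPM and miR-2285j from 336 to 94.8 RPM.

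In brain miR-124a, the main miRNA of neurons, had 2446 RPM at adolescence (901 reads) and 31967 RPM in the adult (25537 reads). The juvenile and aged brain libraries had 57640 and 37110 RPM, so the adolescence library was the one that stood low. It stood apart from the other 3 stages in the same way for miR-26a, with 4516 RPM against 289143, 41082 and 26880 RPM at the juvenile, adult and aged stages, and for miR-2898, with 1295 RPM against 52.6, 214 and 193 RPM. The largest gain among names with at least 100 reads was in miR-135b, from 1 read to 292. Its ratio of RPM values was 135, with a 95% counting interval from 24.0 to 5337.

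In lung the most abundant name changed from miR-26a (32.5% of reads) to let-7b (30.1%). miR-26a went from 325107 to 100298 RPM, and the juvenile and aged lungs had 48127 and 35235 RPM. Among names with at least 100 reads, miR-7 had the largest loss, from 14563 to 1793 RPM, and miR-2478 the largest gain, from 84.6 to 424 RPM. In testes, the shallowest pair, miR-214 had the largest TMM-scaled gain (155 reads to 539) and miR-374a the largest loss (137 to 14). Spleen kept let-7b in front, at 19.7% and 28.8% of reads. The largest gain there, miR-574 from 2863 to 4675 RPM, was past 2-fold by TMM (log2 1.22) but not by RPM (log2 0.71), and the largest loss was miR-374a.

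In antler, which is regrown each year as cartilage and bone, miR-199a-3p remained the most abundant name, at 22.8% and 28.8% of reads. Among names with at least 100 reads, the cartilage miRNA miR-140 had the largest loss, from 691 to 68.2 RPM (148 and 46 reads), and its rank among organs went from 1 to 4. The gain of miR-30f was the largest of those names, from 187 to 636 RPM. Skeletal muscle had miR-1 at 91.8% and 92.9% of reads. Its largest gain was miR-196a, from 59 to 313 reads, and its largest loss miR-409b, from 198 to 42 reads.

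No list of related miRNAs had a called member. The median log2 difference of all 105 tested was 0.28, with 60 above 0. The lists were described by the mean difference of each tested member over the 10 organs. Names that are close in sequence to other small RNAs (8 of 11 tested) had a median of 0.89 with 7 of 8 above 0, the highest median of the lists with more than 1 tested member. Their summed level was not uniform: it went from 1120 to 5563 RPM in adrenal and from 178 to 1212 RPM in heart, but from 4987 to 1339 RPM in antler and from 2367 to 1561 RPM in brain. Whether fragments of other RNAs take part in these levels was not tested. The miR-2284 and miR-2285 family (6 tested of 68 names) had a median of 0.49, set by miR-2284y and miR-2285u, which had the same reads in 17 of the 20 libraries and are in effect 1 signal counted under 2 names. The median of let-7 (6 tested of 10) was 0.39, with let-7c at 0.58 and let-7a-5p at 0.48, and with let-7i and miR-98 below 0.

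Below the median of all tested were the striated muscle miRNAs (4 tested, median -0.49), with miR-1 and miR-133c lower, miR-133a at 0.53 and miR-133b at -0.05, and the miR-26 family (miR-26a and miR-26c, with nearly the same reads, -0.53). The connective tissue and cartilage list (5 tested) had a median of -0.32, with miR-214 at 0.84, miR-199a-3p at 0.02, miR-199a-5p at -0.32 and miR-140 at -0.74. The imprinted DLK1-DIO3 cluster, expressed in fetal and neural tissue, had 26 of 60 names with reads and 7 tested, with a median of -0.23. Its most abundant members were miR-409b (0.26), miR-409a (-0.23) and miR-433 (0.74), and the median turned to 0.12 by RPM and 0.08 with TMM within pairs.

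The leukocyte list had 3 tested members with different signs, miR-342 (0.43), miR-142-5p (-1.28) and miR-150 (0.79), and its summed level went from 1099 to 549 RPM in spleen and from 541 to 261 RPM in lung, but from 288 to 502 RPM in liver. The miR-30 family (4 tested, median 0.17) held miR-30f at 1.08 ± 0.38 (SE; limma adjusted p = 0.122), miR-30c at 0.58 and miR-30a-5p at -0.23. The miR-378 family (4 tested) had a median of 0.14, with miR-378c at -0.01 and miR-378d at -0.57. The miR-29 list held miR-29a (0.29) and miR-29d-3p (-1.04), the Hox list miR-196b (0.70) and miR-196a (-0.52), and the neuronal list miR-124a (0.81) and miR-7. Single tested members stood for erythroid miR-486 (0.52), endothelial miR-126-3p (0.15), miR-17-5p (-0.40), miR-424-5p (-0.91), miR-192 (-0.42) and miR-24-3p (-0.04). The epithelial miR-200 list and the gonad list had 0 tested members.

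Leaving out brain moved the median of all tested miRNAs from 0.28 to -0.11 and most lists with it. The list medians were then 1.04 for names close to other small RNAs, 0.24 for let-7, 0.23 for the miR-2284 and miR-2285 family, -0.13 for the DLK1-DIO3 cluster, -0.70 for the striated muscle miRNAs, -0.69 for the connective tissue and cartilage list and -1.06 for the miR-26 family. Those of the miR-30 (-0.27), miR-378 (-0.14) and Hox (-0.024) lists changed sign, and the leukocyte list was at 0.091. By limma the adjusted p was 0.0256 for miR-26a and miR-26c (-1.06, lower in 8 of 9 organs), miR-17-5p (-0.97, lower in 7 of 9), miR-192 (-1.08, lower in 7 of 9), miR-142-5p (-1.88), miR-29d-3p (-1.53), let-7b (0.97) and miR-2887 (1.38). Of these, miR-29d-3p had at least 20 reads per pair in only 1 organ. Further names with an adjusted p below 0.05 by limma included miR-1 (-1.46), miR-7 (-1.64), miR-671 (-1.45), miR-374a (-1.93), miR-133c (-1.11), miR-2285f (-1.85), miR-409a (-0.70), let-7i (-0.92) and miR-98 (-1.04). Those higher in the adult included miR-339b (0.79), miR-339a (0.75), miR-7859 (1.14), miR-145 (0.72), miR-30f (0.88) and miR-2478 (1.14). Both miR-671 and miR-133c had at least 20 reads per pair in only 3 of the 9 organs. For miR-7859 there were 4 such organs, 2 higher and 2 lower. All these adjusted p values come from a fit that left out the organ whose differences ran against the others. The connective tissue and cartilage list held members of both directions, miR-140 (-0.97, adjusted p = 0.0307 by limma) and miR-199a-5p (-0.69, 0.0427) lower and miR-214 (0.91, 0.0307) higher. Without brain miR-424-5p was at -1.37, miR-30a-5p at -0.63, miR-24-3p at -0.44, miR-486 at 0.34, miR-196b at 0.37, miR-126-3p at -0.29, miR-29a at -0.20, miR-133a at 0.29, miR-378d at -0.87 and miR-30c at 0.093, with adjusted p above 0.05 by limma.

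**Figure D5:**
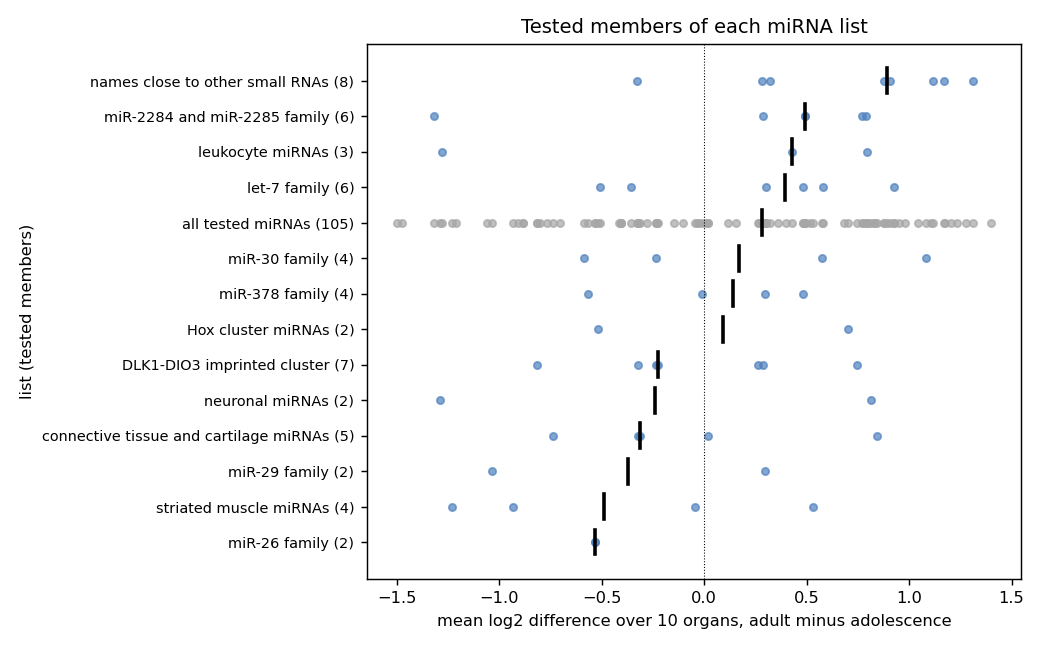
Mean log2 difference over the 10 organs (adult minus adolescence, TMM-scaled) of each tested member (points) of the lists with at least 2 tested members, with the list median as a black bar and all 105 tested miRNAs in grey. Names close to other small RNAs lie furthest above the median of all (0.89 against 0.28) and the miR-26 family furthest below (-0.53), and most lists spread on both sides of 0.

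The libraries as a whole did not differ by stage beyond the spread over organs. In exact two-sided sign-flip permutation tests over 10 organs, with p adjusted over 3 values, the miRNA reads were higher in the adult in 7 of 10 organs (mean log2 difference 0.26 ± 0.72, SD; exact p = 0.285, adjusted p = 0.442). The number of known names at an equal depth of 67231 reads was lower in the adult in 7 of 10 organs, by 4.50 names on average (SD 12.8; exact p = 0.295, adjusted p = 0.442). The share of reads in the 10 most abundant names differed by 0.16 percentage points (SD 5.46; exact p = 0.936, adjusted p = 0.936), with 6 organs higher and 4 lower. The names at equal depth were 137 and 110 in testes, 71.0 and 87.8 in heart and 93.8 and 108 in brain, at adolescence and in the adult. The smallest p this test can give is 0.00195.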

How the data were processed

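The authors trimmed the small RNA reads, set aside other RNA classes, matched the rest to miRBase 22.0, predicted further miRNAs with miRDeep 2.0.5 and deposited, per library, RPM values (reads of a miRNA per 1000000 miRNA reads, headed tpm and not divided by length). Tools and versions are those in the submitters' processing notes. A name with no read is not listed and was taken as 0. All 3850 listed values of the 20 libraries came out whole as reads (tolerance 0.01), and these recovered reads served for filters and for edgeR. No miRNA sequences were used here, so a planned check by GC content of the miRNA was not run and no sequence is shown. Antler lists no miR-2957, and its miR-148c was put under that name.

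The main test was limma 3.58.1 (trend) (R 4.3.3) applied to TMM-scaled values (edgeR 4.0.16) as log2(RPM + 1), with organ as a block and Benjamini-Hochberg adjusted p. The pairing comes from the organ. The organs of a stage share deer, so p measures agreement over organs and not over animals. Fold changes on log2(RPM + 1) understate those of scarce names. Intervals are at 95% and, like read counts, do not cover variation between animals. Alternatives were RPM without TMM, DESeq2 1.42.0 and its size factors, clean reads, totals without miR-1, log2(RPM + 10), other read minimums, all 40 libraries, no organ block, merged names, organs left out, and, added after the data were seen, TMM within pairs and library GC content as a covariate. The fit was tested on simulated data. Figures and summaries used Python 3.11.15, numpy 2.4.6, pandas 2.3.3, scipy 1.17.1 and matplotlib 3.10.9.

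The comparison and all miRNA lists were chosen with earlier results of these data known. Named were the 5 smallest p values in each direction, names on one side in 10 of 10 organs, the 3 most abundant tested members of each list, the organ markers, and the largest gain and loss of each organ with at least 100 reads. Outside that rule, miR-2887, miR-2284y, let-7i and miR-98 were named, and miR-374a and miR-2904 beyond the organs where they were largest, after their values were seen.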

Additional observations from a re-analysis of the deposited data

Results flagged for a closer look

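Of 34 sets of 10 organ differences examined, 2 had an organ that stood apart from the other 9 by Dixon's 95% limit for 10 values, where chance alone flags about 1 in 20 sets. For miR-342, a miRNA of lymphocytes, antler differed by 4.04 on the log2 scale (2 reads at adolescence and 62 in the adult) and the next organ by 0.77. Without antler the mean difference of miR-342 over organs was -0.049 in place of 0.43. For miR-2285u, testes differed by 2.37 and the next organ by 1.02, and that pair is the shallowest of the 10. The median of all miRNAs measured in testes was 1.03 by TMM and -0.53 by RPM, so the size of this value also depends on the scaling.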

How the results depend on the processing

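No setting called a miRNA. Of the named miRNAs, 52 were followed through the settings, and 39 of these kept the sign of their mean difference in every setting run for them. The largest gains and losses of single organs, and the names added outside the rule, were not among the 52 unless another rule named them. The pairing by organ mattered: with no replicate block limma gave 6 miRNAs at an unadjusted p below 0.05 in place of 23, with 0 called. All 40 libraries in the fit gave 29, TMM within pairs 32 and the GC covariate 19. An adjusted p below 0.05 was reached by 23 with DESeq2, 8 with TMM within pairs, 7 with all 40 libraries, 3 with the GC covariate, 2 on totals without miR-1, 3 without liver, and 1 each without antler and without skeletal muscle. The count on one side in at least 9 of 10 organs was 10 with TMM within pairs, 2 by RPM, 9 on clean reads and 4, all lower, on totals without miR-1. Counts past 2-fold by RPM were 5 in skeletal muscle and 36 in spleen, and with log2(RPM + 10) 6 in skeletal muscle. With 100 reads as the minimum they were 37 in adrenal, 17 in antler, 32 in lung, 5 in skeletal muscle and 27 in testes. That minimum also cut the number of miRNAs measured, to 69, 48, 58, 49 and 39 in the same order.

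The sign of 13 means changed in at least 1 setting, among them miR-30c (0.58), miR-196a (-0.52) and miR-342 (0.43). On clean reads miR-409a was 0.021, miR-133b 0.21, miR-378c 0.23 and miR-24-3p 0.20. With the size factors of DESeq2, miR-133b and miR-378c were 0.021 and 0.024, with DESeq2 on reads 0.16 and 0.029, with all 40 libraries 0.019 and 0.024, and with TMM within pairs 0.024 and 0.039, where miR-24-3p was 0.0038. With log2(RPM + 10) miR-133b was 0.043, miR-126-3p -0.048 and miR-196a 0.11, and with edgeR miR-133b was 0.015 and miR-126-3p -0.28. miR-126-3p was -0.25 with DESeq2, -0.17 on totals without miR-1 and -0.11 with merged names. miR-199a-3p was -0.034 by RPM, -0.21 on totals without miR-1, -0.18 with merged names and -0.40 without brain, lung and testes, where miR-30c was -0.023 and miR-664b -0.057. With the GC covariate miR-24-3p was 0.10. The causes were not tested.

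Leaving out 1 organ at a time, the mean ran from -0.10 to 0.31 for miR-409b, -0.34 to 0.15 for miR-133b, -0.32 to 0.070 for miR-378c, -0.32 to 0.052 for miR-199a-3p, -0.20 to 0.58 for miR-29a, -0.049 to 0.50 for miR-342, -0.34 to 0.10 for miR-126-3p, -0.44 to 0.023 for miR-24-3p, -0.084 to 0.33 for miR-664b and -0.034 to 0.49 for miR-2285l. Some names that kept their sign moved widely too. Their means ran from 0.20 to 0.88 for miR-150, 0.23 to 0.84 for miR-433, 0.13 to 0.55 for miR-486 and 0.048 to 0.39 for miR-378. Those of miR-2898 ran from 0.43 to 1.15, of miR-2478 from 0.69 to 1.31 and of let-7a-5p from 0.19 to 0.56. The difference in the share of the 10 most abundant names ran from -0.82 without testes to 0.96 percentage points. Depth limits scarce names most in testes, where 1 read was 14.9 and 10.3 RPM.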
